A study of Mus musculus with 22 samples.

Results

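Integrin and laminin genes were followed across the choroid plexus (ChP) of mice with altered *Otx2*. The members were the protein-coding genes whose symbols name an integrin alpha or beta gene or a laminin alpha, beta or gamma chain. They numbered 41 of the 33984 genes to which the deposited transcripts could be assigned. Of these, 17 were integrin alpha subunits, 9 were integrin beta subunits and 11 were laminin chains. The other 4 fit the naming pattern but are no subunit: *Itgbl1* encodes a secreted integrin-beta-like protein, *Itgb1bp1* and *Itgb1bp2* encode proteins that bind an integrin tail, and *Itgb3bp* encodes a nuclear protein. Counts were sufficient for testing in at least 1 comparison for 38 members, and *Itgad*, *Itgb2l* and *Lamb3* were never tested.

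Laminins are large secreted proteins built from an alpha, a beta and a gamma chain, and they form the sheet of basement membrane on which epithelia, vessels and nerves rest. Integrins are cell-surface receptors built from an alpha and a beta subunit, which hold cells to laminins, collagens and other matrix proteins, or to ligands on other cells. The ChP is a secretory epithelium folded over a vascular stroma, so its epithelial and endothelial cells both rest on basement membranes, and its stroma holds fibroblasts and macrophages.

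RNA of dissected ChP was sequenced in 14 pools of mice, 2 pools (A and B) for each of 7 groups. In the conditional model, *Otx2* lox/lox mice aged 3 months, labelled strain S129, had received Cre-Tat, a cell-permeable recombinase, or vehicle in the lateral ventricles and were dissected 15 days later. Each pool held 5 mice for Cre-Tat or 4 mice for vehicle, and ChP of the lateral ventricles (LV) and of the fourth ventricle (4V) was sequenced separately. In the constitutive model, labelled strain B6D2, 4V ChP was pooled from wildtype mice, from mice with 1 *Otx2* allele replaced by GFP (*Otx2*+/GFP, labelled +/-, 3 months old like the wildtype) and from mice labelled *Otx2*+/AA, whose allele the sources used here did not describe. The study's methods name 5 wildtype littermates and 4 *Otx2*+/GFP mice for the pooled 4V samples. Recombination was not limited to a cell type by a promoter, the GFP allele was present in every tissue from conception, and whether LV and 4V pools came from the same mice was not stated. The comparisons asked which integrin and laminin transcripts differed with *Otx2* status and between the ventricles.

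Each pool held 22750019 to 50088408 counted reads. *Otx2*, counted over whole transcripts so that the deleted part could not be viewed alone, went against the labels. It stood at 377 and 459 CPM (read counts scaled to library size) in vehicle LV pools and at 1209 and 1002 in Cre-Tat LV pools. The 4V pools had 377 and 385 (vehicle) against 1175 and 1195 (Cre-Tat), and the constitutive pools had 371 and 314 (wildtype), 1062 and 913 (*Otx2*+/GFP) and 350 and 366 (*Otx2*+/AA). *Ttr*, the transthyretin gene of ChP epithelium, was lower in Cre-Tat and *Otx2*+/GFP pools than in their controls. It had 173662 and 181284 CPM in LV vehicle pools and 92596 and 131560 CPM in LV Cre-Tat pools, without a call (log2 fold change -0.66 ± 0.19, adjusted p = 0.077). It had 164479 and 135715 CPM in 4V vehicle pools and 72175 and 59724 in 4V Cre-Tat pools (log2 fold change -1.18 ± 0.30, adjusted p = 0.015). It had 151590 and 144094 CPM in wildtype and 79023 and 92693 CPM in *Otx2*+/GFP pools (-0.78 ± 0.17, adjusted p = 0.039). The study itself reported fewer *Otx2* reads over exon 2 in Cre-Tat and *Otx2*+/GFP than in control samples, which counts per transcript cannot show. The groups are named by their labels throughout. Epithelial markers were abundant in every pool, with 7 genes summing to between 83026 and 222690 CPM. *Ttr* and *Enpp2* made up most of each sum, with 164479 and 41404 of 210922 CPM in 4V vehicle pool A. The study names *Ttr* as a known direct target of OTX2. In bulk tissue, fewer cells of a type and less RNA per cell cannot be told apart. An exact permutation test, two-sided, of 2 pools and 2 pools cannot give a p below 0.333. All tests below are therefore the quasi-likelihood test of edgeR, adjusted by Benjamini-Hochberg across every gene in the comparison, and a call is an adjusted p under 0.05. The p-values set the difference between groups against the spread between pools, which is estimated partly from all genes. They do not show the spread between mice.

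The sequences just upstream of the start sites of *Lamb1*, *Itga3* and *Itga10* are shown because the levels of these members fell together in the 4V pools labelled Cre-Tat. Each run is the 250 bases before the start, read 5′ to 3′ on the gene's strand in GRCm38.p6 (RefSeq), all in lower case because none of the 3 promoters held the motif searched.
*Lamb1* chr12:31265043-31265292 (plus strand): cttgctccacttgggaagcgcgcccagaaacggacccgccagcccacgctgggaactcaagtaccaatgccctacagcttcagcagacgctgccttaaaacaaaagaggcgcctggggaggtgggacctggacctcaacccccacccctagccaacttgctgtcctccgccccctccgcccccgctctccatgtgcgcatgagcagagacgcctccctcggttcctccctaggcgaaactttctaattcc
*Itga3* chr11:95076715-95076964 (minus strand): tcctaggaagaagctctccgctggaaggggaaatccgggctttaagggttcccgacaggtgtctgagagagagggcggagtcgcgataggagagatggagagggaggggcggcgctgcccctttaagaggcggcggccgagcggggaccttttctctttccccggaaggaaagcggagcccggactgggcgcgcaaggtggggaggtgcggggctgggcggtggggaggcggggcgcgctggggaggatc
*Itga10* chr3:96645334-96645583 (plus strand): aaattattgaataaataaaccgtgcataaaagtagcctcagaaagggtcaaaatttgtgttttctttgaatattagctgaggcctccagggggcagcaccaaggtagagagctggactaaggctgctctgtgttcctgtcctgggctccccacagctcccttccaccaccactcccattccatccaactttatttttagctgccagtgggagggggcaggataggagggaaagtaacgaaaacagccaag
The motif searched was TAATCC, the core recognised by OTX2 and related homeodomains, on both strands (TAATCC or GGATTA). It was looked for from 250 bases before to 50 bases after each RefSeq start, which for *Itga9* lay 105002 bases and for *Itgb8* 526 bases from the start of the transcript counted here. Such windows were given for 27 members, with 30 windows in all, and 2 of the 30 (6.67%) held it against 2320 of 32851 promoters of all genes (7.06%). The 2 matches are shown with the motif in capitals, 50 and 214 bases before the start of *Lamb2* and *Itgax*.
*Lamb2* chr9:108479800-108479829 (plus strand): tatcctcagttaTAATCCtattttagatcc
*Itgax* chr7:128129324-128129353 (plus strand): agagggatcagaTAATCCgggagtttacat
*Lamb2*, a beta chain, was called in none of the 6 comparisons of groups. *Itgax*, a leukocyte alpha subunit, was called in none of those that tested it. It was not tested for Cre-Tat in 4V or between the ventricles in vehicle pools. A match describes these letters only.

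Levels between genes were compared per transcript length, as RPKM (CPM divided by the transcript length in kilobases), here given as mean ± SD of 2 pools. *Lamb1*, the beta chain of the most widespread laminins, had the highest level of all laminin chains in every group. In 4V vehicle pools it reached 96.8 ± 1.28 RPKM, or 71.6% of the sum over the 11 chains, and in LV vehicle pools 41.4 ± 3.69 RPKM, or 51.5%. *Lamb2*, the other broadly used beta chain, followed at 13.4 ± 1.54 RPKM in 4V vehicle pools and 13.0 ± 0.650 RPKM in LV vehicle pools. *Lama2*, the alpha chain of muscle, nerve and vessel laminins, came next at 6.91 ± 0.368 and 6.97 ± 0.582 RPKM. In wildtype 4V pools *Lamb1* stood at 89.1 ± 1.76 RPKM, *Lamb2* at 13.7 ± 0.10 and *Lama2* at 13.1 ± 0.309. The pools of *Lamb1*, *Lamb2* and *Lama2* did not overlap with those of the next chain in any of these 3 control groups, whereas *Lamc3* overlapped with *Lamc1* in LV vehicle pools.

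Among beta subunits, *Itgb1*, the partner of most alpha subunits, was first in the control groups at 64.3 ± 0.398 RPKM (4V vehicle), 69.9 ± 4.47 (LV vehicle) and 83.2 ± 5.80 (wildtype). *Itgb5* and *Itgb8*, which pair with the alpha subunit *Itgav*, followed at 45.4 ± 0.572 and 39.3 ± 4.79 RPKM in 4V vehicle pools. *Itgb6*, another partner of *Itgav*, was far lower at 2.61 ± 0.157 RPKM. Among alpha subunits in 4V vehicle pools, *Itgav* (19.7 ± 3.26 RPKM), *Itga3* (15.2 ± 0.575), *Itga8* (11.05 ± 1.146) and *Itga6* (8.54 ± 0.164) led, without overlap between neighbours. *Itga3* and *Itga6* encode laminin receptors, and *Itgav* and *Itga8* encode receptors for proteins that carry the RGD sequence. In LV vehicle pools *Itga8* (14.7 ± 1.73 RPKM) and *Itga3* (14.6 ± 1.28) overlapped, and *Itga6* was at 3.66 ± 0.0120. In wildtype pools *Itga8* was first at 24.9 ± 0.668 RPKM. The wildtype and vehicle pools differ in strain label and sequencing run and were scaled separately, so these differences cannot be told apart from the model.

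**Figure D1:**
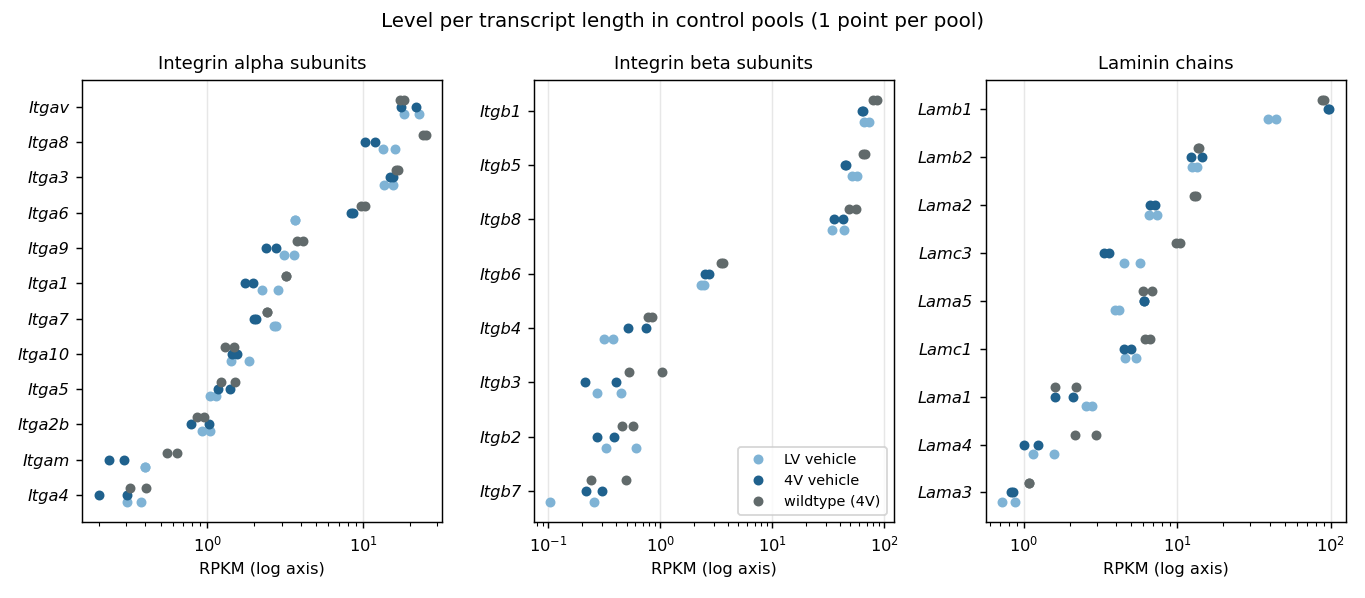
Level of 29 integrin and laminin subunits in control pools, as RPKM on a log axis, 1 point per pool, coloured by group. The other 8 subunits were under 0.1 RPKM in at least 1 of these pools. *Itgb1*, *Itgb5*, *Itgb8* and *Lamb1* lie above all other subunits, and *Lamb1* and *Itga6* lie lower in LV vehicle pools than in both 4V groups.

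In 4V ChP, 6 of the 34 members tested (17.6%) changed in pools labelled Cre-Tat. Over all 14550 genes 10.7% did, 5.7% upwards and 4.98% downwards. *Lamb1*, *Itga3* and *Itga10* fell, and *Itga1*, *Itga4* and *Itgb2* rose. The median log2 fold change was -0.08 over the members and 0.01 over all genes. *Lamb1* had 565 and 554 CPM in vehicle pools and 275 and 307 CPM in Cre-Tat pools. Both Cre-Tat pools were far below both vehicle pools, with a log2 fold change of -0.94 ± 0.14 (SE) and an adjusted p of 0.00026. *Itga3* went from 75.9 and 72.0 CPM to 42.2 and 45.7 CPM, again with no overlap (log2 fold change -0.74 ± 0.13, adjusted p = 0.0011). *Itga10*, a collagen-binding alpha subunit known from cartilage, went from 7.245 and 7.77 CPM to 2.71 and 2.95 CPM. This was the lowest fold change of a member in 4V (log2 fold change -1.40 ± 0.25, adjusted p = 0.0010). Exons of *Itga10* overlap those of the gene model *Gm42957* on the same strand over 34.5% of its transcript, so reads there could not be assigned to one of them.

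The collagen-binding alpha subunits did not move as one. *Itga1*, a collagen and laminin receptor of stromal and vascular cells, had 19.3 and 21.7 CPM in 4V vehicle pools and 39.7 and 47.5 CPM in 4V Cre-Tat pools. The groups did not overlap and the log2 fold change was 1.10 ± 0.15 (adjusted p = 0.00010). Its exons overlap the same-strand gene model *Gm49395* over 6.25% of the transcript. Of the stromal and vascular markers in 4V, *Col1a2* (1.57 ± 0.15) and *Plvap* (0.70 ± 0.20) rose and *Pdgfra* fell (-1.33 ± 0.13). The 6 fibroblast markers summed to 485 to 506 CPM in vehicle and 430 to 477 CPM in Cre-Tat pools, and the 6 endothelial markers to 121 to 134 and 121 to 139 CPM. Their part in the change of *Itga1* was not tested. *Itga2* and *Itga11*, the other collagen-binding subunits, were below 1 CPM in each of these pools. Of the laminin-binding subunits, *Itga6* (log2 fold change -0.38 ± 0.14, adjusted p = 0.12) and *Itga7* were not called.

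Integrins of leukocytes were at low levels. *Itgb2*, the beta subunit shared by the leukocyte-restricted integrins, had 1.16 and 0.813 CPM in 4V vehicle pools and 3.56 and 2.26 CPM in 4V Cre-Tat pools. Both Cre-Tat pools were higher (log2 fold change 1.54 ± 0.41, adjusted p = 0.020), though the call was lost without Cre-Tat pool A (adjusted p = 0.18) or vehicle pool B (0.081) and with DESeq2's Wald test (0.066). *Itga4*, the alpha subunit through which lymphocytes and monocytes bind *Vcam1* and fibronectin, went from 1.956 and 2.98 CPM to 6.63 and 6.60 CPM. The log2 fold change was 1.44 ± 0.28 with an adjusted p of 0.0021. Its exons overlap the opposite-strand gene *Cerkl* over 11.5% of the transcript. *Vcam1* itself was called lower, with 329.3 and 319.1 CPM in 4V vehicle pools and 239.7 and 205.5 CPM in 4V Cre-Tat pools. The fibronectin gene *Fn1* was not called, with 27.4 and 28.4 CPM against 38.7 and 34.7 CPM. Macrophage markers moved with these genes: the 7 markers summed to 47.1 and 47.2 CPM in 4V vehicle pools and to 108 and 75.0 CPM in 4V Cre-Tat pools, and 5 of 7 rose. The 6 markers of T and B cells summed to 0.217 to 0.723 CPM and to 1.53 to 2.71 CPM, with *Cd79a* and *Ms4a1* at 0 in vehicle pools. The 3 neutrophil markers summed to 12.95 CPM in Cre-Tat pool A, against 0.689 in Cre-Tat pool B and 0.361 to 0.362 in vehicle pools, with *Ly6g* at 0 in these pools. Of 3 dendritic cell markers *Cd209a* and *Flt3* rose, with sums of 5.51 to 5.87 and 8.54 to 8.96 CPM. Among 3 astrocyte markers *Aqp4* and *Gfap* rose, with sums of 19.0 to 32.5 and 38.2 to 41.8 CPM. Among 3 ependymal markers *Foxj1* rose, with sums of 83.9 to 101 and 176 to 185 CPM. All 7 epithelial markers fell, their sum going from 177874 to 210922 CPM down to 83026 to 94542 CPM. The part of these cell types in the integrin and laminin changes was not tested.

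Of the leukocyte alpha subunits among the members, *Itgam* was tested with Cre-Tat in both ventricles and *Itgax* in LV, without a call, and *Itgae* and *Itgad* were tested in neither. *Itgam*, the alpha subunit of macrophages and neutrophils, had 1.09 and 1.35 CPM in 4V vehicle pools and 3.45 and 1.92 CPM in 4V Cre-Tat pools (log2 fold change 1.14 ± 0.41, adjusted p = 0.088). In LV it had 1.87 and 1.85 CPM against 4.32 and 2.06 CPM, and in both ventricles Cre-Tat pool A was the higher of the pair. Its exons overlap the gene model *Gm49368* on the same strand over 73.7% of the transcript, so its reads could not be assigned with certainty. *Itgae*, the alpha subunit of lymphocytes that lodge in epithelia, had 1 and 1 reads in 4V vehicle pools and 18 and 10 reads in 4V Cre-Tat pools, too few for the test. In LV its counts were 6 and 9 against 37 and 4, so the groups overlapped. Both genes were also higher than wildtype in the constitutive model, without a call. *Itgam* had log2 fold changes of 0.89 ± 0.24 in *Otx2*+/GFP (adjusted p = 0.086) and 0.69 ± 0.26 in *Otx2*+/AA pools (0.41). *Itgae* had 2.89 ± 0.66 (adjusted p = 0.054) and 2.24 ± 0.74 (0.30). Its reads were 2 and 3 in wildtype, 15 and 26 in *Otx2*+/GFP and 12 and 15 in *Otx2*+/AA pools.

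**Figure D2:**
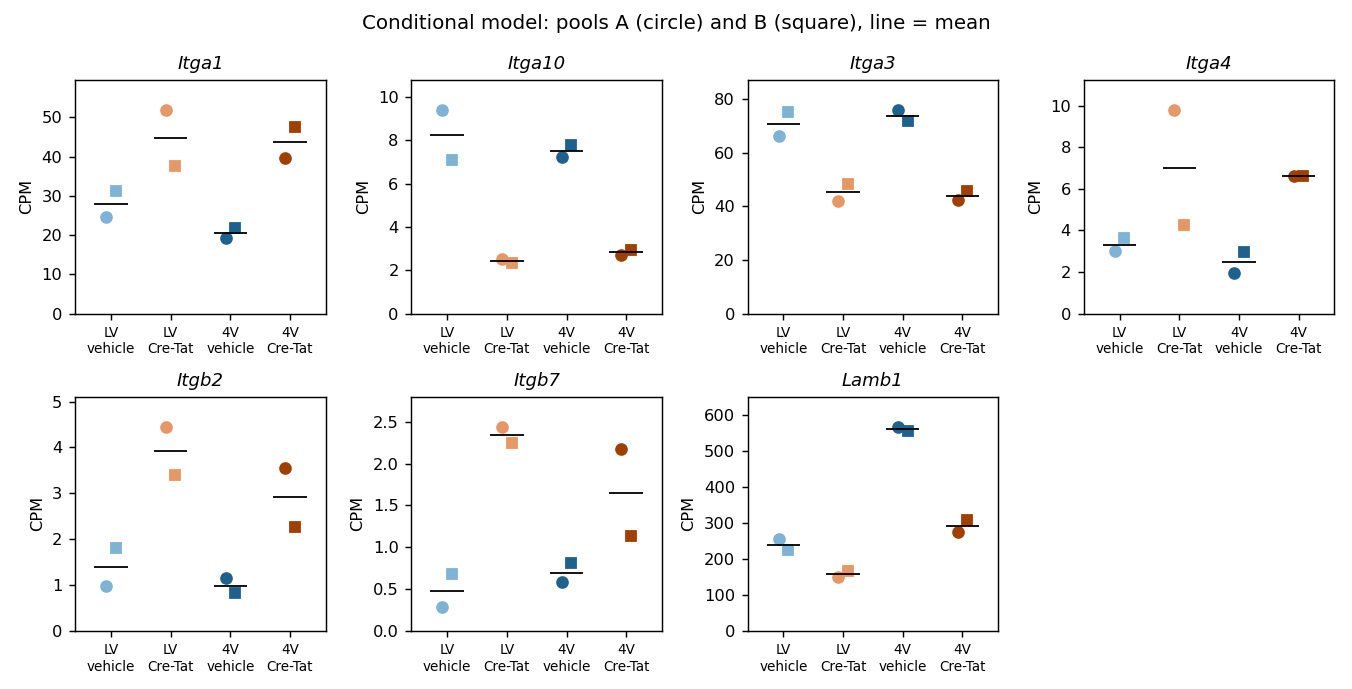
CPM of the 7 members called in at least 1 of the Cre-Tat comparisons, with pool A as a circle, pool B as a square and the mean of both as a line, on axes that start at 0. *Itga10* and *Itga3* lie lower, and *Itgb2* higher, in both Cre-Tat pools of each ventricle than in the vehicle pools. *Lamb1* in 4V goes from 560 to 291 CPM on average.

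In LV ChP, 4 of 35 members tested (11.4%) changed in pools labelled Cre-Tat, against 3.24% of all 15002 genes (2.21% upwards, 1.03% downwards). *Itga10* and *Itga3* fell, and *Itgb2* and *Itgb7* rose. The median log2 fold change was 0.03 over the members and 0.00 over all genes. *Itga10* had 9.385 and 7.10 CPM in vehicle pools and 2.51 and 2.33 CPM in Cre-Tat pools, so the groups lay far apart (log2 fold change -1.76 ± 0.26, adjusted p = 0.0016). *Itga3* went from 66.5 and 75.3 CPM to 42.0 and 48.5 CPM (log2 fold change -0.65 ± 0.16, adjusted p = 0.045). *Itgb2* went from 0.981 and 1.799 CPM to 4.44 and 3.41 CPM (log2 fold change 1.5 ± 0.36, adjusted p = 0.036). *Itgb7*, the partner of *Itga4* in gut-homing lymphocytes, rested on few reads. It had 6 and 14 reads in vehicle pools and 62 and 50 in Cre-Tat pools, or 0.280 and 0.681 CPM against 2.435 and 2.24 CPM. The groups did not overlap (log2 fold change 2.28 ± 0.49, adjusted p = 0.021), and in 4V the corresponding value was 1.26 ± 0.50 without a call (adjusted p = 0.14).

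*Itga10* alone stayed called when Cre-Tat pool A or vehicle pool A of LV was left out (1 member in each case), and *Itga3* was also lost without vehicle pool B (adjusted p = 0.40), with total counts (0.15) and with sums over transcripts (0.057). Beside the leukocyte integrins, macrophage markers in LV summed to 57.1 to 65.3 CPM in vehicle and 91.1 to 111 CPM in Cre-Tat pools (2 of 7 rose), and T and B cell markers to 0.327 to 0.486 CPM and 2.02 to 3.50 CPM, with *Ms4a1* at 0 in vehicle pools. Beside the fall of *Itga3* and *Itga10*, 3 of 7 epithelial markers fell (sums of 214237 to 222690 and 118710 to 158853 CPM). Among 3 astrocyte markers *Aqp4* and *Slc1a2* rose (sums of 28.1 to 46.8 and 58.6 to 79.4 CPM). Among 3 ependymal markers *Foxj1* rose (sums of 76.7 to 84.8 and 130 to 148 CPM). The part of these cell types in the changes was not tested.

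Members called in 4V only had LV values of like sign. *Lamb1* had 254 and 224 CPM in LV vehicle pools and 148 and 167 CPM in LV Cre-Tat pools (log2 fold change -0.60 ± 0.16, adjusted p = 0.064). *Itga1* had 24.7 and 31.1 CPM and then 51.8 and 37.6 CPM (log2 fold change 0.68 ± 0.19, adjusted p = 0.072). *Itga4* had 2.99 and 3.65 CPM and then 9.78 and 4.26 CPM (log2 fold change 1.09 ± 0.34, adjusted p = 0.11). In none of these 3 did the LV groups overlap. The difference between ventricles in the response to Cre-Tat was tested as an interaction, and 0 of 37 members were called by edgeR or by DESeq2. At an unadjusted p under 0.05 there was 1 member, *Lamb2*, with a difference of 0.55 ± 0.20 on the log2 scale. Over all 15565 genes 0.00642% were called. For *Lamb1* the interaction was 0.34 ± 0.20 and for *Itga10* -0.36 ± 0.33.

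The remaining laminin chains were not called in either ventricle with Cre-Tat. *Lamc1*, the gamma chain of most laminins, had log2 fold changes of 0.46 ± 0.16 in LV and 0.15 ± 0.14 in 4V. *Lamb2* had 0.45 ± 0.16 in LV and -0.10 ± 0.14 in 4V. *Itgb1*, the main beta subunit, was not called, with 255 and 279 CPM in LV vehicle pools against 263 and 211 CPM, and 244 and 246.5 CPM in 4V vehicle pools against 198 and 201 CPM. *Itgb8* was lower with Cre-Tat, without overlap of pools and without a call. Its log2 fold change was -0.48 ± 0.18 in LV (adjusted p = 0.20) and -0.44 ± 0.15 in 4V (0.077).

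**Figure D3:**
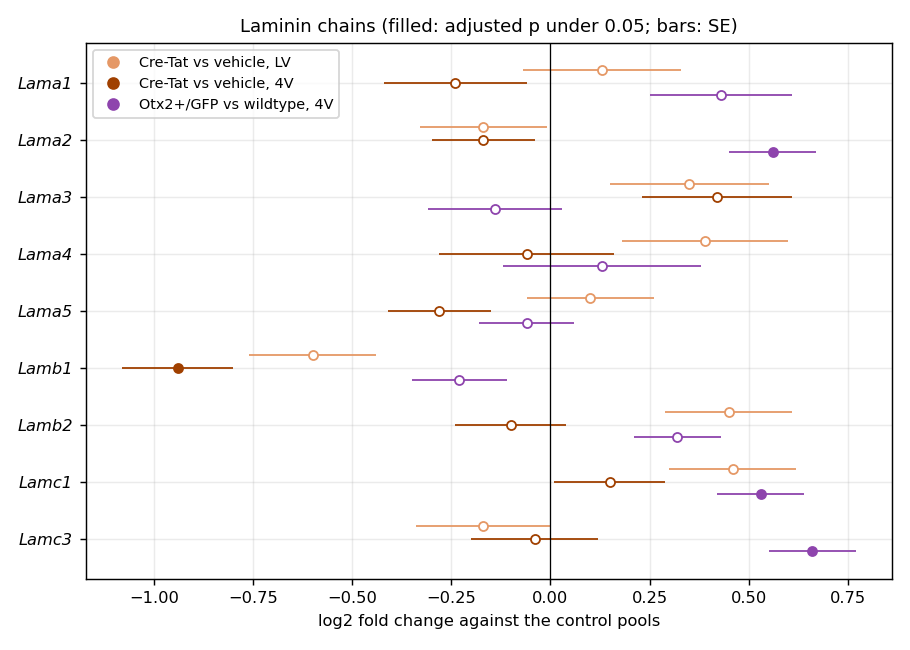
Log2 fold change (x axis) of each laminin chain tested in all 3 comparisons drawn (y axis) in pools labelled Cre-Tat against vehicle, in LV and 4V, and in *Otx2*+/GFP against wildtype 4V pools. Bars are SE and filled points have an adjusted p under 0.05. *Lamb1* is filled at -0.94 in Cre-Tat 4V pools, and *Lama2*, *Lamc1* and *Lamc3* are filled at 0.56, 0.53 and 0.66 in *Otx2*+/GFP pools.

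In the 4V pools of the constitutive model, 5 of 36 members tested (13.9%) changed in *Otx2*+/GFP, against 3.53% of all 14573 genes (1.78% upwards, 1.75% downwards). *Itga9*, *Lama2*, *Lamc1* and *Lamc3* rose and *Itgb6* fell. The median log2 fold change of the 36 members was 0.33 and that of all genes -0.00, with 25 members above 0 and 11 below. *Lamc3*, a gamma chain known from brain surface and vessel basement membranes, had 57.6 and 61.5 CPM in wildtype and 90.3 and 97.7 CPM in *Otx2*+/GFP pools. Its log2 fold change was 0.66 ± 0.11 (adjusted p = 0.017). *Lama2* had 124 and 128 CPM against 191 and 181 CPM (0.56 ± 0.11, adjusted p = 0.031), and *Lamc1* 46.95 and 50.3 CPM against 71.4 and 68.9 CPM (0.53 ± 0.11, adjusted p = 0.039). For all 3 chains both mutant pools were above both wildtype pools.

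*Itga9*, which binds tenascin and other matrix ligands, had 26.5 and 28.8 CPM in wildtype and 47.1 and 50.4 CPM in *Otx2*+/GFP pools. The groups were well separated (log2 fold change 0.82 ± 0.12, adjusted p = 0.0080). *Itgb6*, an epithelial subunit that with *Itgav* activates latent TGF-beta, had 17.6 and 16.8 CPM in wildtype and 8.93 and 8.26 CPM in *Otx2*+/GFP pools. It was the only member called as lower in this comparison (log2 fold change -1.0 ± 0.15, adjusted p = 0.010). *Itga9*, *Itgb6* and *Lamc3* kept their call when any single pool was left out. *Lama2* and *Lamc1* lost it without *Otx2*+/GFP pool A (adjusted p of 0.062 and 0.086) and *Lama2* also without wildtype pool A (0.11) or B (0.079), as did *Lamc1* (0.15 and 0.061). *Lamc1* was also lost without the low-count filter (0.054) and with sums over transcripts (0.065).

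Exons of *Lamc3* and *Lama2* overlap antisense genes over 5.6% and 1.6% of their length, and the strand setting of the counting was not given. Beside the laminin chains, 6 fibroblast markers summed to 752 to 819 CPM in wildtype and 1036 to 1146 CPM in *Otx2*+/GFP pools, and 2 of 6, *Col1a2* and *Col3a1*, rose. The 3 astrocyte markers summed to 34.9 to 35.1 CPM in wildtype and 58.5 to 100.3 CPM in *Otx2*+/GFP pools, and *Aqp4* rose (log2 fold change 1.74 ± 0.16). The 7 macrophage markers summed to 81.3 to 83.8 and 93.9 to 106 CPM, and *Mrc1* rose (0.64 ± 0.14). The 6 endothelial markers summed to 332 to 364 and 315 to 368.5 CPM. The 7 epithelial markers summed to 193127 to 201925 and 127215 to 135188 CPM, with 2 of 7 falling (*Ttr* and *Folr1*). Their part in the results was not tested.

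**Figure D4:**
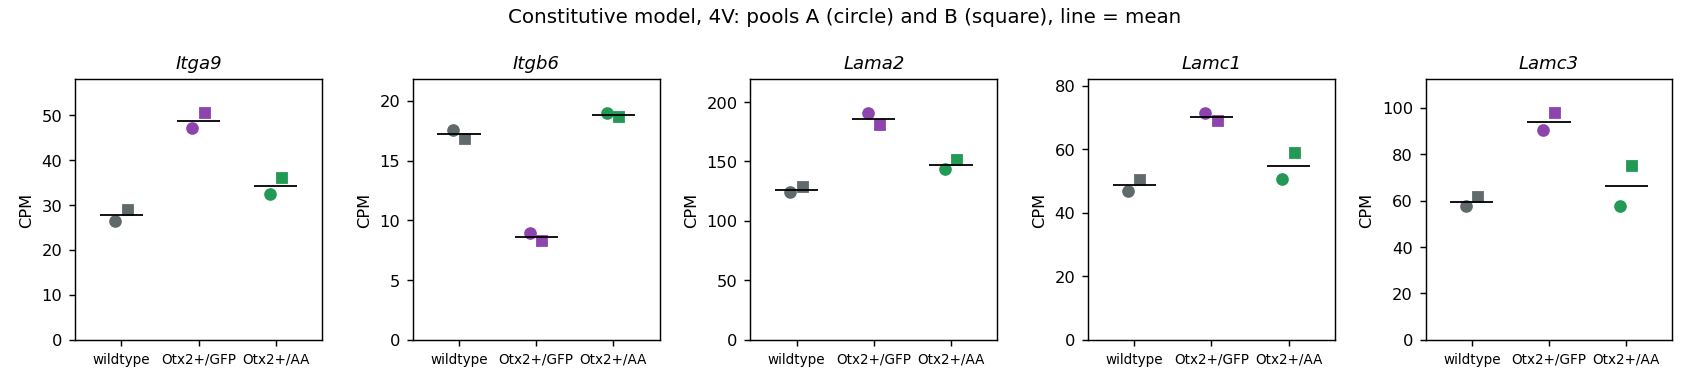
CPM in 4V pools of the 5 members called in *Otx2*+/GFP, with pool A as a circle, pool B as a square and the mean of both as a line, on axes that start at 0. *Itgb6* is at 8.60 CPM on average in *Otx2*+/GFP against 17.2 in wildtype, and each *Otx2*+/AA pool lies below the *Otx2*+/GFP pools for *Itga9*, *Lama2* and *Lamc1* and above them for *Itgb6*.

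In *Otx2*+/AA pools 0 of 36 members were called by edgeR or by DESeq2, where 0.345% of all 14494 genes were by edgeR. At an unadjusted p under 0.05 there were 4 members: *Itgae*, *Itgam*, *Itgb2* and *Itgb8*. *Itgb8* had 473 and 405 CPM in wildtype and 626 and 505 CPM in *Otx2*+/AA pools (log2 fold change 0.36 ± 0.15, adjusted p = 0.46). *Itgb6* was at 19.0 and 18.7 CPM (0.12 ± 0.16) and *Lama2* at 144 and 151 CPM (0.22 ± 0.12). The *Otx2*+/GFP and *Otx2*+/AA comparisons share the wildtype pools.

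Members called in 1 model are set here beside the other model in 4V. *Itga9* had a log2 fold change of 0.24 ± 0.16 and *Itgb6* of -0.41 ± 0.19 in Cre-Tat 4V pools, both without a call. *Lamb1* had -0.23 ± 0.12 (adjusted p = 0.34), *Itga3* -0.33 ± 0.11 (0.14) and *Itga10* -0.53 ± 0.20 (0.20) in *Otx2*+/GFP pools. The difference between the models was tested as an interaction in 4V, which called 1 of 38 members, *Lama2*, and 1.64% of all 15327 genes. *Lama2* had a log2 fold change of -0.17 ± 0.13 with Cre-Tat (63.9 and 68.9 CPM in vehicle, 58.8 and 58.5 in Cre-Tat pools) and of 0.56 in *Otx2*+/GFP. The difference of -0.74 ± 0.16 had an adjusted p of 0.034, which rose to between 0.051 and 0.18 when any 1 pool was left out. *Lamb1* (-0.72 ± 0.17, adjusted p = 0.059) and *Lamc3* (-0.71 ± 0.17, adjusted p = 0.067) had differences of like size that were not called. Model, strain label and sequencing run cannot be told apart here.

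Between the ventricles, 4 of 33 members tested (12.1%) differed in vehicle pools, against 7.44% of all 14561 genes (3.46% higher and 3.98% lower in LV). *Lamb1*, *Itga6* and *Lama5* were lower in LV and *Lamc3* was higher. The median log2 ratio of LV over 4V was 0.07 over the members and 0.01 over all genes. *Lamb1* had 254 and 224 CPM in LV against 565 and 554 CPM in 4V, with a log2 ratio of -1.23 ± 0.13 (adjusted p = 6.0e-05). *Itga6*, a receptor for laminins at epithelial and vascular basement membranes, had 15.8 and 15.8 CPM in LV against 36.3 and 37.3 CPM in 4V (-1.22 ± 0.13, adjusted p = 9.1e-05). Both were separated by more than their spread, in the direction of more transcript in 4V. *Lama5*, the alpha chain of most adult epithelial basement membranes, had 47.25 and 44.5 CPM against 69.0 and 69.5 CPM (-0.60 ± 0.12, adjusted p = 0.0077). *Lamc3* had 26.5 and 33.65 CPM against 21.0 and 19.6 CPM (0.56 ± 0.15, adjusted p = 0.037). *Lamc3* lost its call without LV pool B (adjusted p = 0.26) or either 4V pool (0.089 and 0.22), with DESeq2's Wald test (0.078), all groups of the run in 1 fit (0.059), sums over transcripts (0.067) and total counts (0.14). *Lama5* lost its call without 4V pool B (0.061), where 2 members remained called.

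In the pools labelled Cre-Tat, 6 of 37 members (16.2%) differed between the ventricles, against 5.87% of all 15111 genes (2.98% higher and 2.89% lower in LV). *Lamb1*, *Itga6* and *Itgbl1* were lower in LV, and *Lama1*, *Lama4* and *Itga7* were higher. *Lamb1* had 148 and 167 CPM in LV against 275 and 307 CPM in 4V (-0.89 ± 0.18, adjusted p = 0.0062). *Itga6* had 18.7 and 13.4 CPM against 25.9 and 30.6 CPM (-0.81 ± 0.20, adjusted p = 0.021). *Lamb1* and *Itga6* were thus called in both treatments. *Itgbl1* had 0.471 and 0.897 CPM against 2.55 and 2.41 CPM (-1.86 ± 0.45, adjusted p = 0.017), resting on 12 and 20 reads against 48 and 49.

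*Lama1*, the alpha chain of embryonic and pial basement membranes, had 21.7 and 33.9 CPM in LV against 15.8 and 13.6 CPM in 4V Cre-Tat pools (0.92 ± 0.21, adjusted p = 0.015). *Lama4*, the alpha chain of vessel basement membranes, had 10.4 and 11.04 CPM against 6.26 and 6.65 CPM (0.73 ± 0.21, adjusted p = 0.045). *Itga7*, a laminin receptor of muscle and vascular smooth muscle, had 9.27 and 12.4 CPM against 6.90 and 4.97 CPM (0.87 ± 0.23, adjusted p = 0.034). All 3 had LV pools above 4V pools. Of 11 alternatives that kept the assignment of files, *Lama4* stayed called in 4 (highest adjusted p 0.19), *Itga7* in 7 (0.35) and *Lama1* in 9 (0.088). Without 4V Cre-Tat pool B no member was called (0 by edgeR), and without LV Cre-Tat pool B 3 were.

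In vehicle pools the values of these 3 had the same sign without a call: 0.54 for *Lama1*, 0.28 for *Lama4* and 0.44 for *Itga7*. Endothelial markers were higher in LV in both treatments, with 3 of 6 called each time (*Pecam1*, *Plvap* and *Tek*), and summed to 185 to 211 CPM in LV against 121 to 134 CPM in 4V for vehicle, and to 207 to 234 against 121 to 139 CPM for Cre-Tat. The part of vessels in the ventricular differences was not tested. The 7 epithelial markers summed to 214237 to 222690 CPM in LV and 177874 to 210922 CPM in 4V vehicle pools. In Cre-Tat pools they summed to 118710 to 158853 CPM in LV and 83026 to 94542 CPM in 4V. All 7 had log2 ratios above 0 there, and 1, *Folr1*, was called. The part of the epithelium in the ventricular differences was not tested. The ventricle and Cre-Tat comparisons share pools.

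**Figure D5:**
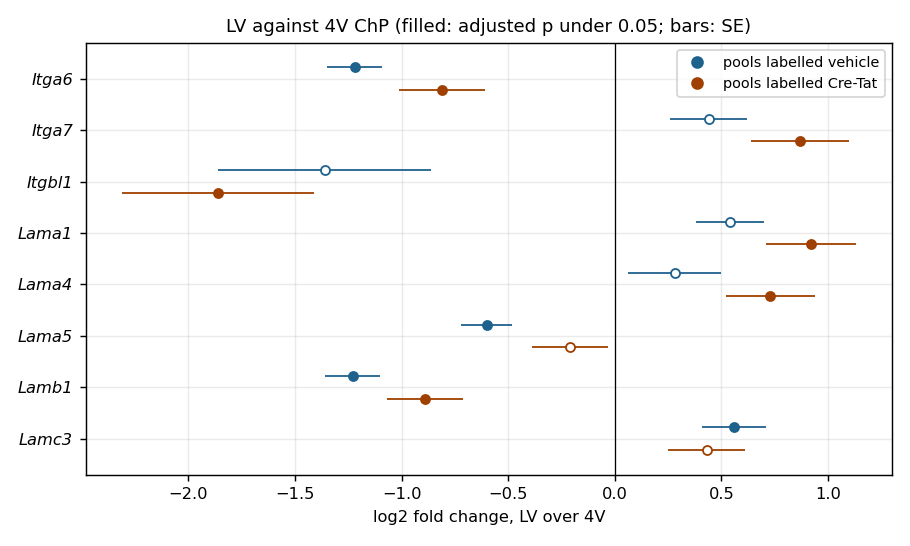
Log2 ratio of LV over 4V (x axis) for the 8 members called in at least 1 treatment (y axis), in vehicle and Cre-Tat pools, with SE as bars and filled points for an adjusted p under 0.05. Each member lies on the same side of 0 in both treatments, and *Lamb1* and *Itga6* are filled in both.

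Of 22 other basement membrane proteins and integrin ligands, 21 were tested in 4V pools labelled Cre-Tat, where 7 fell and 2 rose (over all genes 4.98% fell and 5.7% rose). Network-type collagen *Col4a6* (log2 fold change -1.39 ± 0.18), netrin *Ntn4*, which binds laminin (-0.99 ± 0.14), and *Col4a3* (-0.85 ± 0.15) fell, while *Col18a1*, a vessel and epithelial basement membrane collagen (0.83 ± 0.13), and *Icam1*, the ligand of *Itgb2* integrins (0.99 ± 0.20), rose. In LV *Icam1* (0.71 ± 0.17) was the only one called. In *Otx2*+/GFP pools 3 fell, *Vtn*, the RGD ligand vitronectin (-1.73 ± 0.20), *Col4a4* (-1.66 ± 0.19) and *Col4a3* (-1.11 ± 0.13), and *Col18a1* rose (0.64 ± 0.11). *Vtn* was also the only one called in *Otx2*+/AA pools (-0.94 ± 0.15). The median log2 fold change of the list was -0.20 in Cre-Tat 4V, -0.26 in Cre-Tat LV, -0.06 in *Otx2*+/GFP and -0.01 in *Otx2*+/AA pools.

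Between the ventricles, 10 of 22 ligands were higher and 3 lower in LV in vehicle pools (over all genes 3.46% higher and 3.98% lower), and 10 were higher and 2 lower in Cre-Tat pools (2.98% and 2.89%), with list medians of 0.48 and 0.64. *Spp1*, osteopontin, was higher in LV by 1.73 ± 0.16 on the log2 scale in vehicle and 1.41 ± 0.20 in Cre-Tat pools. *Tnc*, the tenascin bound by *Itga9*, was higher in LV by 3.74 ± 0.42 in Cre-Tat pools. It had 4.36 and 4.62 CPM in LV against low levels of 0.265 and 0.394 CPM in 4V. In vehicle pools *Tnc* was also called higher in LV. *Fn1*, fibronectin, was lower in LV (-1.56 ± 0.16 in vehicle and -1.54 ± 0.29 in Cre-Tat pools). Of 21 adaptors and membrane partners of integrins, 20 were tested in each comparison. *Tln2*, a talin, rose in 4V Cre-Tat pools (0.65 ± 0.15) and was lower in LV than in 4V in Cre-Tat pools (-0.69 ± 0.18). The kinase gene *Src* fell in *Otx2*+/GFP pools (-1.04 ± 0.17). No other adaptor or partner was called by edgeR in the 6 comparisons of groups.

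Over the 6 comparisons, 18 members were called in at least 1, with 25 calls in all. The share of all genes called in at least 1 was not counted, so the 18 cannot be set against it. In single comparisons 0.345% to 10.7% of all genes were called. Among the members tested and not called were *Itgb1*, *Itgb5*, *Itgb8*, *Itgav* and *Itga8*, which stood high per length in the control pools. Of the 3 genes never tested, *Itgad* had 1 read in all files, *Lamb3* 16 and *Itgb2l* 61.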

How the data were processed

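Total RNA from pooled ChP was depleted of ribosomal RNA and made into strand-specific libraries per the labels, whereas the study's methods name polyA+ RNA, and was sequenced as reads of 50 bases. The authors deposited counts, whole numbers of reads per Ensembl transcript, without normalization. The submitters' processing notes name bcl2fastq 1.8.4, Bowtie 0.12.9, SAMtools, HTSeq 0.5.3, DESeq 1.8.3 and mm10; the strand setting and annotation release were not given in the sources used here. Here 82807 of 95533 transcripts (89.5% of counts) were matched to GENCODE vM21, and the transcript with the highest summed count stood for each gene. Of 16 files of the conditional model, 14 carried the library number of another sample. Files were joined by library number, since the 2 sequencing runs of a pool then differed by little more than counting noise (chi-square per degree of freedom 1.002 to 1.032, against 13.2 to 20.5 as attached), and both runs were summed. File totals were 11253762 to 43790479 counts.

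CPM used TMM over the pools of each model, and RPKM divides by the length of the transcript used. Each comparison was fitted on its own groups with edgeR 4.0.16 (R 4.3.3; TMM, filterByExpr, quasi-likelihood test), with p adjusted over all genes tested. Interactions were fitted on their 4 groups. The procedure was checked on simulated counts. Alternatives were DESeq2 1.42.0, other scalings, no filter, a block for the pool letter, 1 fit per run, sums over transcripts, files as attached, and leaving out each pool. Members and lists were chosen with earlier results of these data known; some genes that fit the pattern are not reported here. A member called in at least 1 test was named with its values, other members by range, count or as the highest of their class. From the ligand and adaptor lists at most 3 genes per direction and comparison were named. For *Itga4* in 4V its ligands *Vcam1* and *Fn1* were named besides. Members described without a call were chosen after their values were seen. Same-letter pools had correlations of their deviations between -0.18 and 0.40, and nothing stated what a letter shares.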

Additional observations from a re-analysis of the deposited data

Results flagged for a closer look

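*Lama2* differed between the models in 4V: its change in pools labelled Cre-Tat was lower than that in *Otx2*+/GFP pools by a log2 difference of -0.74 ± 0.16 (edgeR interaction test, adjusted p = 0.034). The difference was past the threshold in 3 of 14 alternatives and lay between -0.79 and -0.63 in all 14. Model, strain label and run cannot be told apart.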

How the results depend on the processing

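With 2 pools a group, small changes and members of few reads were hard to detect, and many calls lay near the threshold. Without the files as attached, no gene result changed direction under any alternative. Calls were lost in 4 of 26 gene results with DESeq2, 6 of 26 with sums over transcripts, 4 of 26 with total counts, 1 of 26 without a filter, 1 of 26 with the block, 1 of 25 with all groups of a run and 39 of 108 with a pool left out. DESeq2's size factors lost none. With total counts the median of all genes moved to 0.17 (Cre-Tat, LV), 0.15 (Cre-Tat, 4V), 0.11 (*Otx2*+/AA), -0.19 and -0.17 (LV against 4V, vehicle and Cre-Tat) and 0.12 (model interaction).

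Leaving out 1 pool gave 1 to 7 called members for Cre-Tat in LV, 6 to 10 for Cre-Tat in 4V, 3 to 6 for *Otx2*+/GFP, 2 to 7 for LV against 4V in vehicle and 0 to 7 in Cre-Tat pools, and 0 for the model interaction. The lone pool was then assumed to vary like the others. Without the filter 7 members were called for Cre-Tat in LV (4 with it), 7 for LV against 4V in vehicle (4) and 3 for the model interaction (1). For that interaction DESeq2 called 3, and total counts, sums over transcripts and the block each called 0. With the pool letter as a replicate block, 12 members were called for Cre-Tat in 4V (6 without), 16 for *Otx2*+/GFP (5), 7 for LV against 4V in vehicle (4) and 6 in LV for Cre-Tat (4). Same-letter pools correlated at -0.18 in LV, and with the letters crossed, a pairing chosen after seeing the data, 8 members were called. The share of all genes called under each of these settings was not counted. The shifts can therefore not be read as particular to the members, and their cause was not tested.

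With files as attached to the samples, which joins runs of different pools, 21 members were called for Cre-Tat in LV, 25 in 4V, 7 for LV against 4V in vehicle, 14 in Cre-Tat pools, 11 for the interaction of treatment and ventricle and 17 for the model interaction. The share of all genes called with files as attached was not counted either. The log2 fold changes that then turned in sign were -0.05 (*Itgb7*) and 0.29 (*Itga10*) for Cre-Tat in LV, and 0.16 (*Itga3*), -0.42 (*Itga4*) and -0.15 (*Itga1*) for Cre-Tat in 4V, and 0.02 (*Lamb1*) for LV against 4V in vehicle, and 0.02 (*Lamb1*), -0.22 (*Lama4*), -0.24 (*Itga7*), 0.26 (*Itga6*) and -0.41 (*Lama1*) for LV against 4V in Cre-Tat pools.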
